A study of Mus musculus with 33 samples.

Results

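Ribosome biogenesis factors are the nucleolar and nuclear proteins that transcribe ribosomal RNA, modify it, cut it out of its precursor and fold it into the small (40S) and large (60S) ribosomal subunits. They were chosen by function, as a list of 42 gene symbols, with earlier results of these data known. Of these, 41 were rows of the 21671-gene expression table, and all 41 passed the filter on low values in both arms of the study (the remaining symbol, Noc2l, was not analysed here). In the tumour arm Gar1 passed that filter only through its values in the tumours. They comprised 4 genes of RNA polymerase I and its regulators, 3 nucleolar scaffold and chaperone proteins, 3 core proteins of box C/D and 4 of box H/ACA small nucleolar ribonucleoproteins (snoRNPs), 10 proteins of the small subunit processome, 5 factors of late 40S maturation and 12 factors of 60S assembly.

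RNA polymerase I makes a long precursor RNA in the nucleolus. The snoRNPs guide methylation (box C/D) and pseudouridylation (box H/ACA) of that RNA, the small subunit processome folds and cleaves its 5′ part, and separate factors assemble the large subunit around the remainder. Ribosome production is a classic output of MYC, and the liver raises it when hepatocytes leave quiescence to grow and divide.

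Total RNA was sequenced from 33 livers and liver nodules of C57BL/6 mice, in 2 arms. In the short-term arm, mice aged 6 to 8 weeks were injected with AAV8-TBG-CRE, an adeno-associated virus carrying the Cre recombinase gene under a promoter active in hepatocytes, and livers were taken on day 4. The groups were wild type (WT, 5 livers), b-cat Ex3 (an allele from which Cre deletes exon 3 of β-catenin, giving a stabilised protein; Ex3, 5 livers), R26-lslMYC (MYC expressed from the Rosa26 locus once Cre has cut out a stop cassette; MYC, 5 livers) and R26-lslMYC/b-cat Ex3 (MYC+Ex3, 5 livers), so the WT controls had received the virus too. In the tumour arm, liver nodules came from Alb-CreERT2/R26-lslMYC mice (3 MYC tumours) and Alb-CreERT2/R26-lslMYC/b-catEx3 mice (3 MYC+Ex3 tumours), in which Cre is driven by the albumin promoter and switched on by 4-hydroxytamoxifen (4-OHT). Their controls were 7 WT livers taken 4 days after 4-OHT. The ages of the tumour-bearing mice are not given in the sources used here, so growth as a nodule, time and age cannot be told apart in that arm.

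Values are in RPKM, a read count divided by the length of the gene and by the library total, so that genes of different length can be compared. The short-term livers had 3.75 M to 7.31 M reads in genes and the tumour arm 6.65 M to 9.82 M. The RPKM of the 2 arms are on different scales, because reads in genes made up 99.95% to 99.96% of the library total in the first arm and 22.2% to 29.6% in the second, and levels were compared only within an arm. Axin2, a target of β-catenin, was at 18.4 ± 5.37 RPKM in Ex3 livers and 3.32 ± 0.609 in WT (SD, n = 5 each; log2 change 2.13, limma adjusted p = 0.012), in the direction of the labels. Ctnnb1, which encodes β-catenin, was at 120 ± 5.44 RPKM in Ex3 and 128 ± 5.84 in WT livers, and a total over the gene does not show whether exon 3 was deleted. The Myc row was at 4.00 ± 0.751 RPKM in MYC and 2.57 ± 1.22 in WT livers (log2 change 0.55, limma adjusted p = 0.21), and whether reads of the transgene count in that row is not given in the sources used here. Sex, read from Xist and Ddx3y, was mixed in the groups, with 2 males of 5 in WT, 3 of 5 in Ex3 and in MYC, 4 of 5 in MYC+Ex3, 4 of 7 in the 4-OHT livers, 3 of 3 in MYC tumours and 2 of 3 in MYC+Ex3 tumours. MYC replicate 5 held RNA of both sexes (Xist at 86.1 RPKM and Ddx3y at 4.74). Transcripts of skin keratins (Krt5, Krt14 and Krt17, summed to 1 RPKM or more) were present in 10 of the 20 short-term livers (3 WT, 3 Ex3, 1 MYC and 3 MYC+Ex3) and in no library of the tumour arm.

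Of the 41 factors, 39 rose in MYC livers 4 days after Cre and none fell, against 16.9% of the 13688 genes tested that rose and 5.36% that fell (limma on log2(RPKM + 1), adjusted p under 0.05). Their median log2 change was 1.29, against 0.07 over all genes tested, and 33 of them were at 2 times the WT mean or more. In 35 of them every MYC liver was above every WT liver, which held for 10.9% of genes. Over all genes, 2313 rose and 734 fell. After each library was rescaled by its median ratio to the mean profile the split was 1882 and 1302, and 38 factors were called, with a median of 1.19. The heat map of all factors by library shows the pattern.

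**Figure D1:**
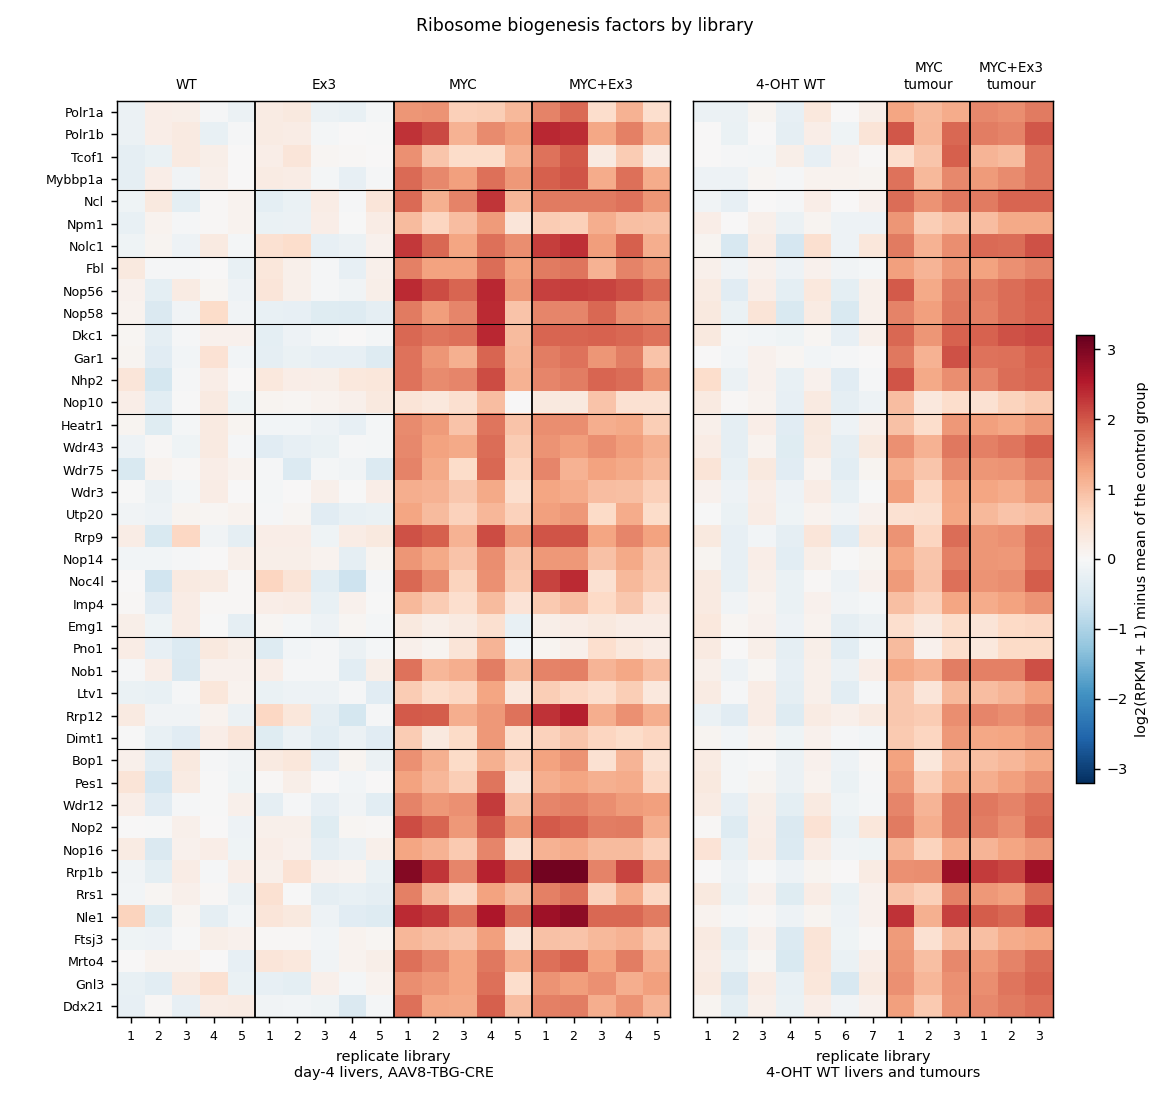
Each cell is the log2(RPKM + 1) of a factor (rows, grouped by role) in a library (columns), minus the mean of the WT livers (left) or of the 4-OHT WT livers (right); the colour scale is in log2 units. Nearly all factors are above the control mean in every MYC, MYC+Ex3 and tumour library, while the Ex3 livers look like WT, and Nop10, Emg1 and Pno1 stay pale.

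The genes of polymerase I and its regulators rose in 4 of 4 cases. Polr1b, the second largest subunit of the enzyme, was at 6.64, 9.09, 9.61, 6.43 and 7.48 RPKM in the WT livers and at 42.3, 36.8, 17.8, 24 and 21.1 in the MYC livers, a log2 change of 1.67 ± 0.25 (SE; limma adjusted p = 6.1e-05). The groups did not overlap, and the lowest MYC liver was still well above the highest WT liver. Mybbp1a, a nucleolar regulator of this transcription, was at 12.3, 17.9, 14.2, 17.4 and 15.5 in WT and 56.8, 46.7, 39.3, 54 and 41.8 in MYC (log2 change 1.56 ± 0.17). Polr1a, the largest subunit, went from 6.57 ± 1.05 to 15.3 ± 3.74 RPKM (mean ± SD, n = 5), and Tcof1, which encodes treacle, from 1.99 ± 0.508 to 4.79 ± 1.56. Tcof1 was not called without MYC replicate 1 or in male libraries alone (larger adjusted p 0.157).

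Among the scaffold and chaperone proteins, Ncl (nucleolin) was at 17.3, 24.2, 15.3, 19.8 and 20.9 RPKM in WT and 70, 43.5, 60.3, 98.3 and 41.2 in MYC livers, a log2 change of 1.58 ± 0.19 (limma adjusted p = 1.2e-05). Npm1 (nucleophosmin), a histone and ribosome chaperone, was at 65.4, 84.8, 75.6, 80.5 and 85 in WT and 157, 125, 155, 201 and 103 in MYC, a log2 change of 0.88 ± 0.15. Npm1 had the highest RPKM of any factor in a library, and its groups did not overlap. Nolc1, which carries snoRNPs to the nucleolus, rose by 1.72 log2 units.

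The box C/D proteins rose together. Fibrillarin (Fbl), the enzyme that methylates ribosomal RNA, was at 17.6, 13.6, 13.7, 14.2 and 11.8 RPKM in WT and 45, 36.1, 35.6, 51.3 and 36.1 in MYC livers (log2 change 1.46 ± 0.15). Its partner Nop56 was at 28.8, 20.9, 31.4, 27.1 and 23 in WT and 140, 113, 97.8, 143 and 70.1 in MYC. With a log2 change of 2.03 ± 0.16, Nop56 had the smallest adjusted p of all factors (limma, 3.5e-07), and its lowest MYC liver, replicate 5, was above every WT liver. Nop58, the other partner, was at 27.3, 18.2, 23.2, 38.6 and 23.5 in WT and 81.8, 65.4, 77.1, 136 and 48.7 in MYC (1.57 ± 0.20).

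Of the box H/ACA proteins, dyskerin (Dkc1), the pseudouridine synthase, was at 15, 11.6, 13.9, 15.8 and 16 RPKM in WT and 53.9, 49, 50.7, 80.3 and 30.2 in MYC livers (log2 change 1.74 ± 0.17, limma adjusted p = 1.3e-06). Gar1 and Nhp2, which bind dyskerin, rose by 1.44 and 1.60. Nop10, the small remaining protein of the particle, was at 107, 72, 90.1, 112 and 82.4 in WT and 122, 116, 131, 182 and 91.6 in MYC, so the groups overlapped. Its log2 change was 0.45 ± 0.15 (limma adjusted p = 0.041), and the call was lost in 13 of 21 alternative settings, with adjusted p between 0.009 and 0.393.

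In the small subunit processome 9 of 10 proteins rose. Heatr1, of the subcomplex that binds the nascent precursor, was at 12.3, 8.55, 11.1, 14.3 and 12.3 RPKM in WT and 34.8, 31.5, 22.6, 40.4 and 22.8 in MYC livers (log2 change 1.29 ± 0.17). Wdr43, of the same subcomplex, was at 19.9, 23, 20.4, 27.5 and 21.7 in WT and 67.3, 56.1, 52.7, 79.2 and 39.9 in MYC (1.33 ± 0.14). Neither gene's groups overlapped. The others were Rrp9, a protein of the U3 snoRNP (1.71), Noc4l (1.27), Nop14 and Wdr75 (1.18 each), Wdr3 (0.98), Utp20 (0.96) and Imp4 (0.76). Emg1, a methyltransferase of 18S ribosomal RNA, was at 78, 61.6, 80, 68.1 and 56.1 in WT and 85, 77.2, 83.2, 96.9 and 57.9 in MYC, a log2 change of 0.21 ± 0.12 that was not called (limma adjusted p = 0.213).

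Late 40S maturation had the smallest median change of the 7 roles, 0.73, against 1.18 to 1.58 in the others. Nob1, the endonuclease that makes the 3′ end of 18S ribosomal RNA, was at 3.95, 4.96, 2.73, 4.63 and 4.66 RPKM in WT and 16.1, 9.60, 10.4, 14.9 and 9.40 in MYC livers (log2 change 1.32 ± 0.18). Its binding partner Pno1 was at 49.7, 34.9, 31.1, 52.4 and 48.2 in WT and 47.8, 45.2, 57, 91.7 and 40.1 in MYC (0.34 ± 0.18, limma adjusted p = 0.192). The Pno1 groups overlapped and 2 of the 5 MYC livers were above every WT liver, so the 2 partners did not move alike, although that difference was not tested. Ltv1, needed for export and maturation of the 40S particle, was at 14.9, 14.5, 17, 22.6 and 18.9 in WT and 31, 26.3, 28.1, 42.7 and 22.2 in MYC (0.73 ± 0.15), with the lowest MYC liver just under the highest WT liver. Rrp12, an export factor, and Dimt1, which dimethylates 18S ribosomal RNA, rose by 1.64 and 0.73.

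All 12 factors of 60S assembly rose. Bop1 and Pes1 form, with Wdr12, the PeBoW complex, which processes the large-subunit RNA. Bop1 was at 29.5, 20.6, 33.3, 25.9 and 24.5 RPKM in WT and 74.2, 59.4, 41.1, 59.2 and 45.1 in MYC livers (log2 change 1.02 ± 0.20), and Pes1 at 27, 13.6, 24.3, 19.9 and 18.3 in WT and 50.7, 42.7, 35.3, 67.9 and 26.7 in MYC (1.05 ± 0.20). Only the lowest MYC liver of Pes1, replicate 5, reached into the WT range. Wdr12 rose by 1.52.

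The largest changes of all 41 factors were in this role too. Rrp1b was at 2.09, 1.68, 2.89, 2.23 and 2.83 RPKM in WT and 24.4, 15.1, 8.70, 17.1 and 11.7 in MYC livers, 6.57 times as high on average (log2 change 2.23 ± 0.30, limma adjusted p = 2.2e-05). Nle1, an assembly factor that contacts the AAA ATPase of the particle, was at 5.05, 1.78, 2.80, 1.98 and 2.45 in WT and 18, 16.5, 11.3, 21.1 and 11.7 in MYC (2.15 ± 0.27). No MYC liver overlapped with WT for either gene. The others ranged from 0.93 for Ftsj3 to 1.74 for Nop2, a 28S methyltransferase; between them lay Nop16 (1.05), Rrs1 (1.12), which acts with the 5S particle, Gnl3 or nucleostemin (1.29), the helicase Ddx21 (1.42) and Mrto4, a placeholder for a stalk protein (1.49).

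**Figure D2:**
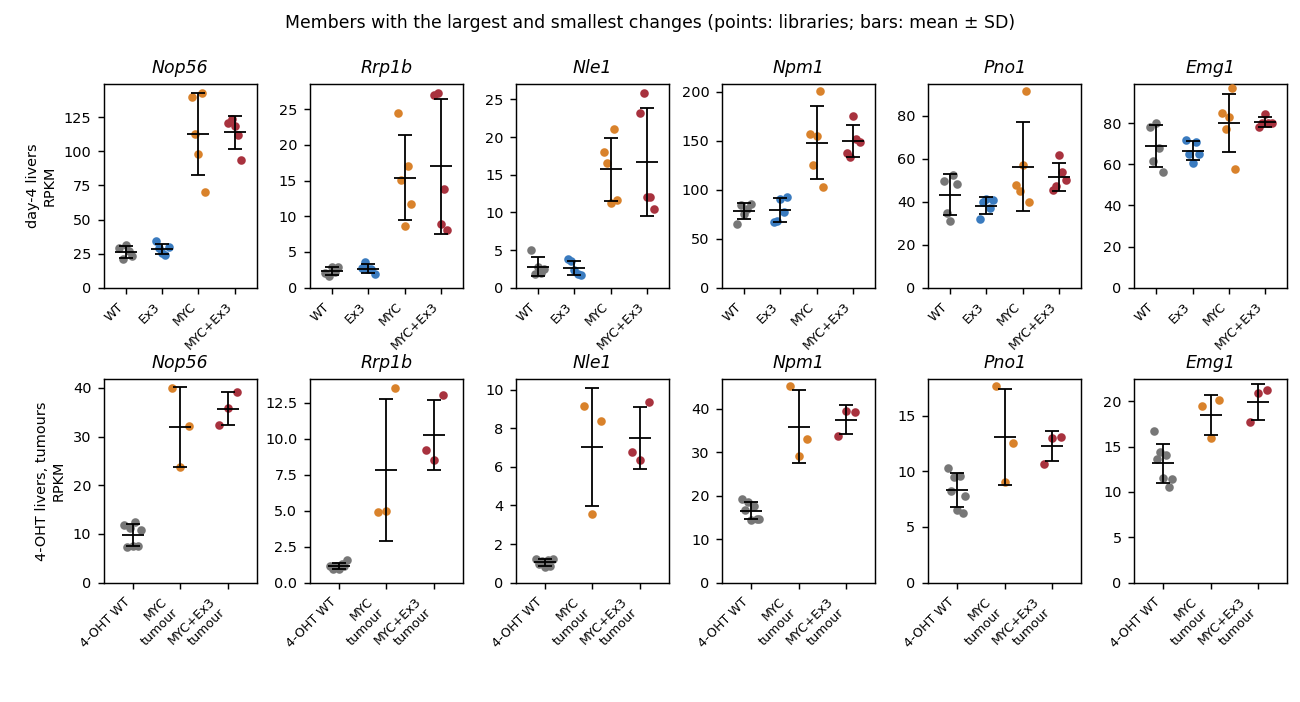
RPKM of 6 factors by group, with 1 point per library and bars at the mean ± SD; day-4 livers above, 4-OHT WT livers and tumours below, on separate linear scales that start at 0. Nop56, Rrp1b, Nle1 and Npm1 show MYC groups clear of the controls, while the Pno1 and Emg1 points of MYC and WT livers overlap.

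Factors that were abundant in WT livers changed less on the log2 scale than scarce ones (Spearman's rho -0.431 across the 41 factors, with changes from limma-voom on recovered reads; a description across genes, in which the level and the change share the WT libraries). In the deposited values the highest gene of a library held between 1474 and 1810 reads per kilobase in all 33 libraries, although library totals ran from 3.75 M to 38.8 M reads. Npm1 stood at 21.6% to 27.8% of that highest value in WT and 43.5% to 57.2% in MYC livers, and Nop10 at 21.7% to 35.5% and 38.7% to 51.7%. Emg1 stood at 16.5% to 29.4% and 24.4% to 30.2%, and Pno1 at 10.5% to 16.4% and 16.7% to 26.1%. In MYC livers 5 factors were above 40% in at least 1 liver: Npm1, Nop10, Nop56, Nhp2 and Ftsj3. Nop56 stood at 6.3% to 11.6% in WT and 29% to 48.9% in MYC livers (log2 change 2.03). Nhp2 stood at 6.47% to 14% and 28.6% to 40.1% (1.60), and Ftsj3 at 15.1% to 20.5% and 31.2% to 42.9% (0.93). The part of this limit in the changes of single factors was not tested.

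MYC binds the E-box CACGTG, so the promoters of the factors were read for it, in windows from 250 bases before to 50 bases after the start of the gene (RefSeq, GRCm38.p6, a different build from the mm9 of the expression data). A promoter was found for 35 of the 41 factors. The motif, which reads the same on both strands, was in 9 of these (25.7%), against 8.09% of all 27025 genes with such a window and 9.39% of those in the expression table. The related CACGCG or its reverse complement CGCGTG was in 8 of 35 (22.9%), against 10.5% and 14.6%. The E-box windows of the factors with the 3 largest and the 3 smallest day-4 changes among the 9 are shown, chosen after these changes were seen, with the E-box in capitals and 5′ to 3′ along the gene's strand.
Nle1: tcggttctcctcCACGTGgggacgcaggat
Nop2: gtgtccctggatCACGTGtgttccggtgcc
Mybbp1a: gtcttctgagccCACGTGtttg
Imp4: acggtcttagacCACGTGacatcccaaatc
Ltv1: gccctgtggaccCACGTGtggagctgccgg
Pno1: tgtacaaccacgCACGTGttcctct

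These lie at chr11:82908355-82908384 on the minus strand (Nle1), chr6:125131811-125131840 on the plus strand (Nop2), chr11:72441355-72441376 on the plus strand (Mybbp1a), chr1:34439696-34439725 on the plus strand (Imp4), chr10:13193092-13193121 on the minus strand (Ltv1) and chr11:17211540-17211564 on the minus strand (Pno1). Wdr43, Pes1 and Utp20 held the motif as well. The same 6 letters thus stand in the promoter of Nle1, with a log2 change of 2.15, and of Pno1, with 0.34. The median day-4 change was 1.05 in the 9 factors with the motif and 1.37 in the 26 matched factors without it, so the factors with the motif had the lower median. The match of letters is a description and shows no binding.

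No factor was called in livers with Ex3 alone. None of the 41 passed the test against WT by limma (0.132% of genes rose and 0% fell) or in the authors' deposited table (0.656% of genes higher), and none had an unadjusted limma p under 0.05, against 5.44% of genes. The median log2 change was 0.01, between -0.32 and 0.28, and the 95% intervals of single factors lay between -0.74 and 0.75. Nop58 had the lowest change, with 21.4, 20.8, 19, 18.8 and 20.5 RPKM in Ex3 livers against 27.3, 18.2, 23.2, 38.6 and 23.5 in WT, the WT value of 38.6 coming from replicate 4. Gar1 (-0.29) was next lowest, at 1.9, 2.08, 1.95, 1.95 and 1.68 in Ex3 and 2.78, 1.77, 2.33, 3.88 and 2.33 in WT, with replicate 4 again the highest of the WT livers.

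At the other end were Nhp2 (0.28) and Mrto4 (0.18). Nhp2 was at 40.5, 37.2, 36.8, 40.6 and 41.5 RPKM in Ex3 and 42.4, 21.5, 31, 37.1 and 32.5 in WT livers. Mrto4 was at 26.8, 26, 18.9, 22.1 and 23.3 in Ex3 and 20.4, 22.3, 22.3, 20.7 and 16.7 in WT. In all 4 of these genes the Ex3 and WT livers overlapped. Of the box C/D and scaffold proteins, Nop56 was at 34, 29.3, 25.1, 24.1 and 29.7 in Ex3, Fbl at 18.4, 16, 13.6, 11.6 and 15.9, Ncl at 15.2, 16.5, 22.9, 18.8 and 25.7, and Npm1 at 67.1, 67.7, 90.7, 77.3 and 92.7. Ex3 replicate 1 was the highest of the 5 for Nop56 and Fbl and the lowest for Ncl and Npm1. Among the other factors of the panel, Dkc1 was at 11.4 to 14.5 in Ex3 livers, Polr1b at 7.44 to 9.48, Mybbp1a at 12.6 to 18.6, Heatr1 at 9.55 to 11.1, Wdr43 at 17.2 to 21.9, Bop1 at 22 to 34, Pes1 at 19 to 22.9, Nob1 at 3.08 to 4.9 and Ltv1 at 13.4 to 16.8. Each of these ranges overlapped with that of the WT livers.

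With both alleles, most factors were again higher at day 4. In MYC+Ex3 livers 39 of 41 factors rose against WT and none fell (17.9% of genes rose and 6.18% fell), with a median log2 change of 1.35. Every MYC+Ex3 liver was above every WT liver in 37 factors, against 13.5% of genes. Rrp1b (2.27) and Nle1 (2.18) had the largest changes, with Rrp1b at 27, 27.2, 8.87, 13.8 and 8.06 RPKM and Nle1 at 23.2, 25.8, 12.1, 12 and 10.5. In both, replicates 1 and 2 were well above the other 3 livers.

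Nop10 (0.50) was called, but the call was lost in 7 of 21 alternative settings. In the authors' deposited table its adjusted p was 0.0626 in MYC+Ex3 and 0.204 in MYC livers. Emg1 (0.24) and Pno1 (0.27) had the smallest changes and were not called (limma adjusted p = 0.14 and 0.30). Emg1 was at 78.2, 80.2, 84.7, 80 and 80.3 RPKM in the MYC+Ex3 livers and Pno1 at 45.3, 47.2, 61.7, 53.8 and 50.1, and both overlapped with WT. Of the snoRNP and scaffold proteins, Nop56 was at 121, 124, 119, 112 and 93.9, Nop58 at 76.5, 76.3, 92.6, 73.1 and 69.1, and Fbl at 46.6, 48.7, 31.5, 44.3 and 39.1. Dkc1 was at 55.1, 54.6, 55.5, 54.4 and 50.1, Ncl at 63.4, 63.1, 63.1, 66.5 and 52.5, and Npm1 at 138, 133, 175, 152 and 149. In these 6 genes every MYC+Ex3 liver was above every WT liver.

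Polr1b, of polymerase I, was at 45.4, 44.1, 19.5, 26 and 18.4 RPKM in MYC+Ex3 livers, and its regulator Mybbp1a at 60.3, 65, 36.5, 54.3 and 36.5. The processome proteins Heatr1 and Wdr43 were at 34.4, 34.4, 27.2, 28.3 and 20.8, and at 62.8, 57.7, 64.7, 57.7 and 50.8. Replicate 5 was the lowest liver in these 4 genes, in Mybbp1a together with replicate 3. The 60S factors Bop1 and Pes1 were at 65.4, 73.6, 37.7, 57 and 37.5, and at 46.5, 49.2, 45, 46.8 and 32.1, and the 40S factors Nob1 and Ltv1 at 14.4, 14.6, 9.86, 11.1 and 9.18, and at 30.8, 27.9, 25.6, 30.6 and 22.3. Of the 8 genes in this group, only Ltv1 had a liver, again replicate 5, within the WT range.

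Set directly against MYC livers, no factor was called (0 of 41, against 0.19% of genes higher and 0% lower; limma adjusted p = 1.00 for each), and none was in the authors' deposited table (0.247% of genes higher). No factor had an unadjusted limma p under 0.05, against 3.37% of genes. Changes ran from -0.10 for Ltv1 and -0.08 for Rrp9 to 0.09 for Dkc1 and 0.12 for Noc4l, around a median of 0.04, and their 95% intervals lay between -0.59 and 0.83. Rrp9 was at 46.2, 41.9, 23.6, 48.1 and 28.9 RPKM in MYC and 45, 44.9, 26.5, 32.7 and 27 in MYC+Ex3 livers. Noc4l was at 20.5, 16.3, 8.93, 15.5 and 9.74 in MYC and 26.2, 30.8, 7.45, 11.4 and 9.77 in MYC+Ex3. The groups overlapped in both genes, and for Noc4l the MYC+Ex3 livers held the 2 highest values as well as the lowest.

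The test of whether Ex3 altered the MYC effect (the MYC by Ex3 interaction) called 0 of 41 factors and 0% of genes, and no factor had an unadjusted limma p under 0.05 (0.964% of genes). Its values ran from -0.25 for Rrp9 and -0.23 for Nhp2 to 0.31 for Gar1 and 0.32 for Nop58, with intervals between -0.97 and 1.11. In this arm Axin2 went from 3.12 ± 2.42 RPKM in MYC to 16.6 ± 7.46 in MYC+Ex3 livers (log2 change 2.18).

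Adding MYC to Ex3 was also compared. Here 38 of 41 factors rose (16.4% of genes) and 39 did not overlap (15.2%), with a median of 1.37. Nop10 (0.35), Emg1 (0.27) and Pno1 (0.42) were not called, with a largest limma adjusted p of 0.113, and Nle1 (2.22) and Rrp1b (2.14) had the largest changes. Nop10 was at 96.7, 95.1, 99.8, 103 and 113 RPKM in Ex3 and 114, 114, 173, 128 and 128 in MYC+Ex3 livers, and Emg1 at 71.6, 64.8, 60.8, 70.8 and 65.2 in Ex3. Pno1 was at 31.8, 39.7, 41.5, 37.3 and 40.6 in Ex3 and 45.3, 47.2, 61.7, 53.8 and 50.1 in MYC+Ex3 livers. Although Nop10, Emg1 and Pno1 were not called, every MYC+Ex3 liver was above every Ex3 liver in each of them. In Ex3 livers Nle1 was at 3.78, 3.55, 2.29, 1.87 and 1.74 and Rrp1b at 2.71, 3.58, 2.66, 2.57 and 1.86. These comparisons share libraries with those above and are not independent of them.

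**Figure D3:**
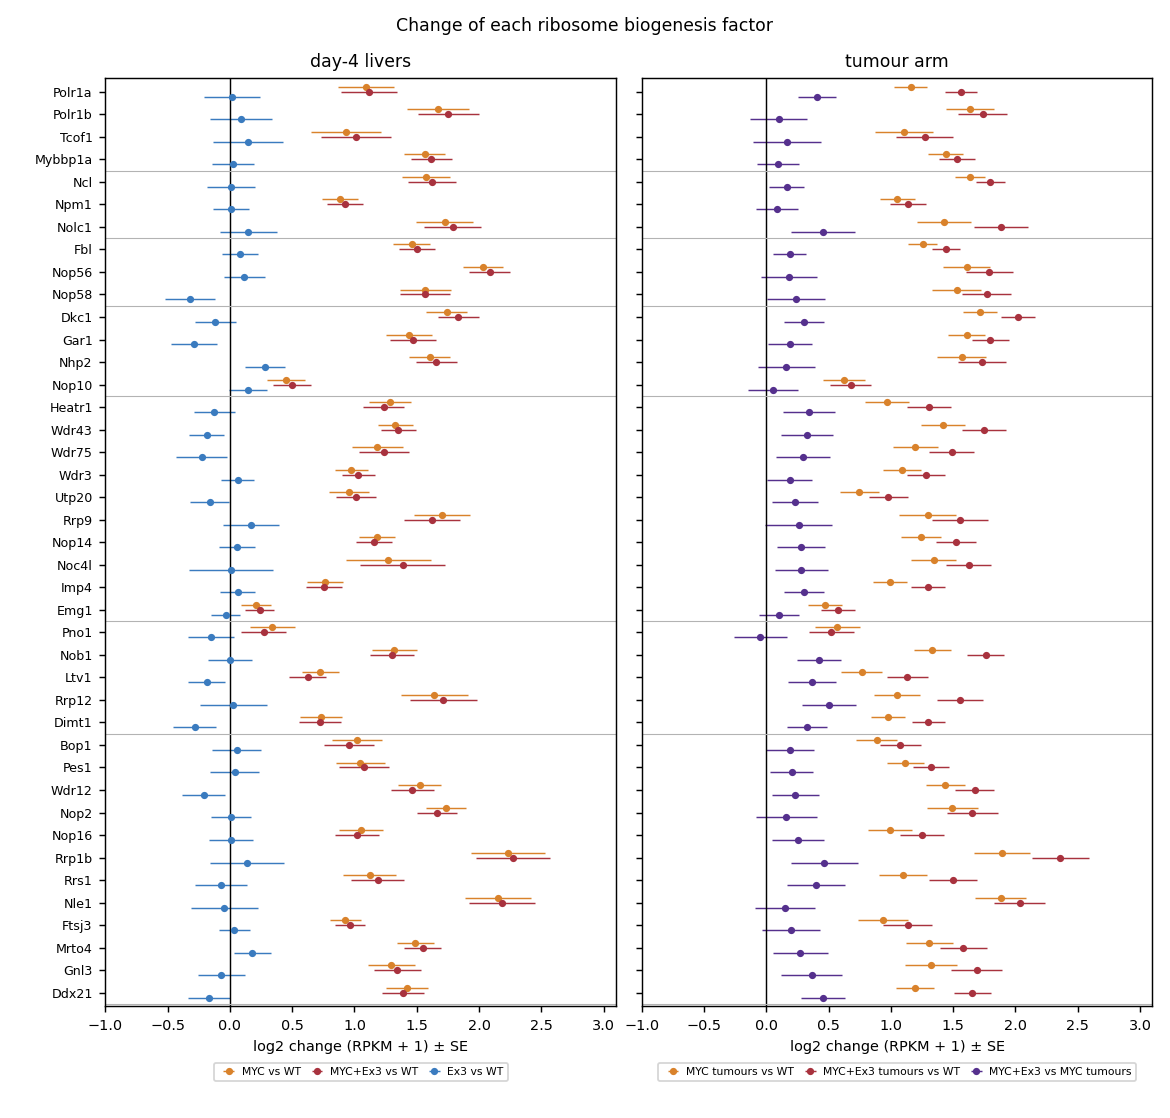
Log2 change (RPKM + 1) ± SE of each factor, in day-4 livers (left) and in the tumour arm (right); points are colour-coded by comparison and the vertical line marks 0. The MYC and MYC+Ex3 points lie side by side for each factor at day 4, the Ex3 points lie around 0, and in the tumour arm the MYC+Ex3 points lie to the right of the MYC points for 40 of 41 factors (27 of 41 without MYC tumour replicate 2).

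The factors were high in tumours as well. In MYC tumours 41 of 41 rose against the 4-OHT WT livers, in a comparison in which 36.2% of genes rose and 13.7% fell, and in MYC+Ex3 tumours 41 of 41 rose, with 42.3% of genes rising and 18.4% falling. Median log2 changes were 1.24 and 1.56, against 0.19 and 0.23 over all genes tested. Median-ratio rescaling brought the latter to 0.01 and 0.05, the factors' medians to 1.06 and 1.36, and the calls to 40 in each. The genes rising and falling then numbered 3212 and 2764 in MYC and 4018 and 3211 in MYC+Ex3 tumours, against 4286 and 1621, and 5011 and 2178, before. No tumour overlapped with the control livers in 39 factors for MYC (26.3% of genes) and 41 for MYC+Ex3 tumours (38.2%). These counts include Gar1, which was at 0.728 to 1.02 RPKM in the control livers. It passed the filter only through the tumours, so its rise is not independent of the filter.

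Rrp1b and Nle1 again had the largest changes. Rrp1b was at 0.928 to 1.57 RPKM (median 1.16) in the 7 control livers, at 4.94, 5 and 13.5 in MYC tumours and at 9.19, 8.54 and 13 in MYC+Ex3 tumours, with log2 changes of 1.89 ± 0.23 and 2.36 ± 0.23. Nle1 was at 0.822 to 1.25 (median 1.11), at 9.17, 3.54 and 8.38, and at 6.79, 6.35 and 9.36 (1.88 ± 0.20 and 2.03 ± 0.20). For Rrp1b a single MYC tumour, replicate 3, was far above the other two, and for Nle1 replicate 2 was the low one.

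Emg1 and Pno1 again had the smallest changes. Emg1 was at 10.6 to 16.7 RPKM (median 13.6) in the controls, at 19.5, 16 and 20.1 in MYC tumours and at 17.7, 20.9 and 21.2 in MYC+Ex3 tumours (log2 changes 0.47 and 0.57). Pno1 was at 6.28 to 10.3 (median 8.22), at 17.7, 9.08 and 12.5, and at 10.7, 13 and 13.1 (0.57 and 0.52). In both genes MYC tumour replicate 2 lay within the control range. The Pno1 calls were lost in 6 and 5 of 20 alternative settings and those of Emg1 in 3 and 1. In the authors' deposited table Pno1 had an adjusted p of 0.0612 in MYC tumours and 0.0149 in MYC+Ex3 tumours.

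By role, polymerase I genes had medians of 1.30 in MYC and 1.55 in MYC+Ex3 tumours. Polr1b was at 2.22 to 4.24 RPKM in the controls (median 2.96), at 14.8, 7.31 and 13.1 in MYC tumours and at 11.3, 10.8 and 14.7 in MYC+Ex3 tumours. Mybbp1a was at 6.70 to 8.43 (median 7.98), at 28.1, 16.8 and 24.1, and at 21.3, 23.9 and 27.5. In both genes the lowest tumour, MYC replicate 2, was above every control liver.

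The scaffold proteins had medians of 1.42 and 1.80. Ncl was at 3.97 to 5.95 RPKM in the controls (median 5.03), at 19.4, 15.2 and 18.1 in MYC tumours and at 17.9, 20.8 and 20.5 in MYC+Ex3 tumours (log2 changes 1.64 ± 0.12 and 1.80 ± 0.12, limma adjusted p = 3.6e-07 and 6.7e-08). Npm1 was at 14.4 to 19.3 (median 16.7), at 45.3, 29.2 and 33.1, and at 33.8, 39.6 and 39.3. In MYC tumours Npm1 stood at 67.1% to 73.1% of the highest reads per kilobase of the library.

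For the box C/D proteins the medians were 1.53 and 1.77. Nop56 was at 7.24 to 12.4 RPKM in the controls (median 10.8), at 40, 23.7 and 32.2 in MYC tumours and at 32.3, 35.8 and 39.1 in MYC+Ex3 tumours. Nop58 was at 3.83 to 8.02 (median 6.52), at 19.3, 15.7 and 20.6, and at 19.7, 22.1 and 24.1. Fbl was at 5.11 to 6.59 (median 5.45), at 15.7, 13.3 and 16.7, and at 15.6, 17.6 and 19.3. All tumours were above all controls in these 3 genes. The box H/ACA proteins, with medians of 1.59 and 1.76, included Dkc1 at 3.21 to 5.23 in the controls (median 3.82), at 17, 12.4 and 17.7, and at 17.7, 19.8 and 20.9. Its log2 changes of 1.71 ± 0.14 and 2.02 ± 0.14 were among the largest of all factors.

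Processome proteins had medians of 1.14 and 1.4. Heatr1 was at 2.40 to 4.40 RPKM in the controls (median 3.89), at 7.38, 5.52 and 10.5 in MYC tumours and at 9.93, 9.26 and 10.4 in MYC+Ex3 tumours. Wdr43 was at 3.45 to 6.21 (median 5.32), at 15.1, 11.6 and 17.7, and at 16.7, 18.2 and 21.1. Both were above the controls in all tumours, by log2 changes of 0.97 and 1.42 in MYC tumours. Late 40S factors had medians of 0.98 and 1.30. Nob1 was at 1.26 to 2.12 (median 1.84), at 5.36, 4.86 and 7.44, and at 7.22, 7.32 and 10.2. Ltv1 was at 3.69 to 6.06 (median 4.77), at 9.68, 6.68 and 11.1, and at 10.6, 11.5 and 13.7. The 60S factors had medians of 1.25 and 1.62, and Bop1 (0.89 and 1.08) and Pes1 (1.12 and 1.32) were among the lower ones. Bop1 was at 6.94 to 9.80 (median 7.83), at 21.1, 10.6 and 16.8, and at 16.4, 17.9 and 19.7, and Pes1 at 5.24 to 7.96 (median 6.05), at 17.9, 11.3 and 15.9, and at 15.3, 17.2 and 19.3.

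The order of the factors by their change was alike in the 2 arms, which share no library. Across the 41 factors the day-4 MYC change and the MYC tumour change (both from limma-voom on recovered reads) had Pearson's r of 0.886 and Spearman's rho of 0.856, a description across genes that share each arm's libraries. The WT levels of the factors were alike in the 2 arms too (Spearman's rho 0.932). In both arms abundant factors changed less (rho -0.431 at day 4 and -0.541 in MYC tumours). The part of level in the shared order was not tested.

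Between the 2 kinds of tumour, no factor was called by limma (0 of 41, against 2.02% of genes higher), and the smallest adjusted p was 0.174. An unadjusted limma p under 0.05 was found for 4 of 41 factors, a smaller share than the 17.6% of all genes; they were Polr1a (log2 change 0.40), Ddx21 (0.46), Nob1 (0.43) and Rrp12 (0.51). The change was above 0 in 40 of 41 factors, against 55.9% of genes, with a median of 0.24 and 95% intervals between -0.50 and 1.04. This count moved with 1 library: without MYC tumour replicate 2, 27 of 41 factors were above 0, with a median of 0.10 (-0.01 over all genes). Without MYC tumour replicate 3 the median was 0.39, with 40 factors above 0. Rrp12 and Rrp1b (0.47) had the largest values, and Pno1 (-0.05) and Nop10 (0.05) the smallest. Rrp12 was at 4.25, 4.01 and 6.99 RPKM in MYC and 7.43, 7.04 and 7.86 in MYC+Ex3 tumours, and Nop10 at 35.5, 22.2 and 25.9 and at 24.8, 29.1 and 31.7. The Rrp12 groups were thus apart, with MYC replicate 3 close to the MYC+Ex3 tumours, and the Nop10 groups overlapped.

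In 5 factors (Polr1a, Nolc1, Rrp12, Gnl3 and Ddx21) every MYC+Ex3 tumour was above every MYC tumour, against 8.59% of genes. Polr1a, for example, was at 7.91, 6.67 and 7.55 RPKM in MYC and 9.85, 9.53 and 10.9 in MYC+Ex3 tumours, and it was the only factor with an adjusted p under 0.05 in the authors' deposited table (log2 0.415, adjusted p = 0.0389; 1.56% of genes higher). Without MYC tumour replicate 3, limma called 2 factors, Rrp1b (0.89, adjusted p = 0.0065) and Dimt1 (0.54, adjusted p = 0.024). The share of all genes called in that fit is not given here, so the count is not read as particular to the factors. With all tumours 2.02% of genes were called higher. The lowest MYC tumour in most factors was replicate 2, whose median log2 value over all factors was 0.90 above the control mean, against 1.35 and 1.49 in the other 2 and 1.41, 1.49 and 1.76 in the MYC+Ex3 tumours.

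Most genes of a second list from the pathway moved in the same direction. This list of 132 genes held other polymerase I subunits and initiation factors (17), other small subunit (40) and large subunit (52) factors, the RNA exosome (14) and snoRNP assembly factors (9), and all 132 were tested. In MYC livers 108 rose (16.9% of all genes tested) and in MYC+Ex3 livers 110 (17.9%). In MYC tumours 121 rose (36.2%) and in MYC+Ex3 tumours 123 (42.3%), and none was called lower in these comparisons. None was called in Ex3 livers or between the tumour groups. Their median log2 changes were 0.80, 0.81, 0.85 and 1.05, below those of the 41 factors in each comparison. At day 4 Ppan, a 60S factor, had the largest rise in MYC livers (1.78, 31.4 against 8.34 RPKM), followed by Cd3eap, a polymerase I subunit (1.71). Rcl1 (-0.20, limma adjusted p = 0.255) and C1d (-0.12), an exosome cofactor, had the lowest values. In MYC+Ex3 livers Ppan (1.87) and Ruvbl2 (1.82), an ATPase of snoRNP assembly, were highest, and C1d (-0.23) and Sbds (-0.17), which acts in release of the last 60S factor, lowest. In MYC tumours Taf1d (1.81), of the polymerase I initiation factor, and Lyar (1.71) led, and Sbds (0.04) and Polr2l (0.08), a subunit shared by the polymerases, were lowest. In MYC+Ex3 tumours Lyar (2.03) and Taf1d (1.90) were highest and Ttf1 (-0.05) and C1d (0.08) lowest. In Ex3 livers, where none was called, the range ran from Shq1 (-0.41) and Tma16 (-0.38) to Bms1 (0.30) and Tbl3 (0.31).

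Markers of dividing cells rose with the factors in the groups with MYC, but within groups they did not always follow the factors. All 14 genes of a proliferation list rose in MYC livers, in MYC+Ex3 livers and in both tumour groups. None was called in Ex3 livers, where their median log2 change from WT was 1.07, against 0.01 for the factors. Mki67 was at 2.84 ± 1.53 RPKM in WT and 55.1 ± 18.3 in MYC livers (n = 5 each). Ex3 replicates 3 and 4 stood apart, with summed proliferation values of 165 and 183 RPKM against 20.7 to 27.4 in the other 3 Ex3 livers and 12.2 to 28.3 in WT. In these 2 livers the median of the 41 factors was -0.12 and -0.10 log2 units from the WT mean. MYC replicate 5, with a similar proliferation sum of 197, had a median of 0.94. With Ex3 replicates 3 and 4 left out, still no factor was called against WT. The MYC tumours had proliferation sums of 109, 160.5 and 186 with factor medians of 1.35, 0.90 and 1.49. In the MYC+Ex3 tumours the sums were 181, 213 and 195 and the medians 1.41, 1.49 and 1.76.

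**Figure D4:**
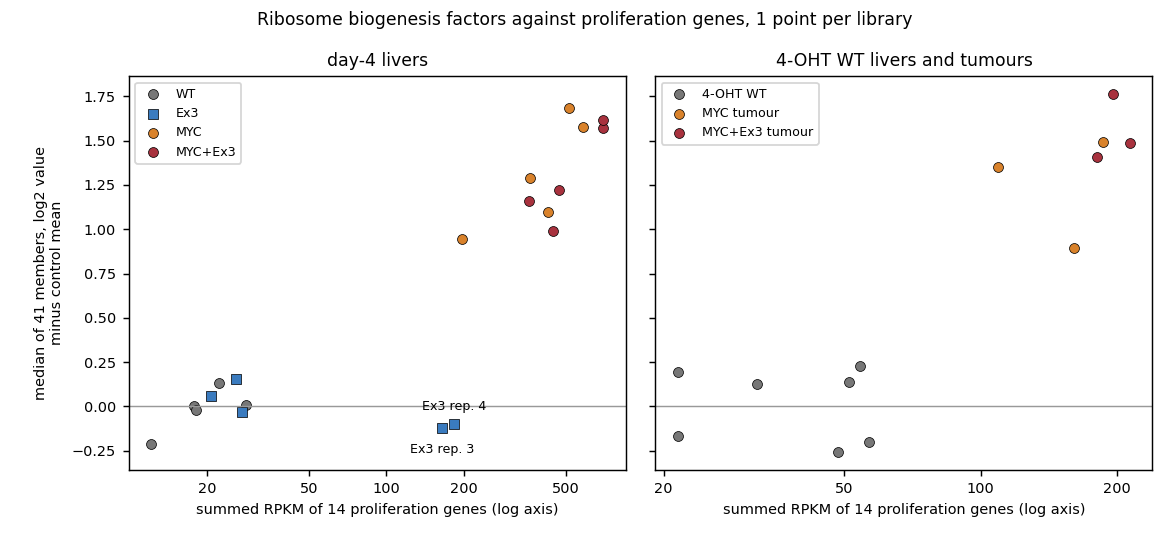
Median over the 41 factors of the log2(RPKM + 1) value minus the control mean (vertical axis), against the summed RPKM of 14 proliferation genes (horizontal, log axis), with 1 point per library. Ex3 replicates 3 and 4 have proliferation sums of 165 and 183 with factor medians under 0, while all MYC, MYC+Ex3 and tumour libraries have medians from 0.90 to 1.76.

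In bulk tissue, a change in the share of cells of a type and a change in RNA per cell cannot be told apart. Hepatocyte markers were present in all groups, with summed values of 1049 to 1885 RPKM over the day-4 livers; 2 of 9 fell in MYC and in MYC+Ex3 livers, where 5.36% and 6.18% of genes fell. Of 7 endothelial markers, 2 fell in MYC livers, and of 8 stellate and fibroblast markers 2 rose in MYC livers, while 1 rose and 2 fell in MYC+Ex3 livers. Of 8 macrophage markers 1 rose in MYC livers, and no cholangiocyte or lymphocyte marker was called in either group against WT.

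In MYC and MYC+Ex3 tumours, where 13.7% and 18.4% of genes fell, 1 and 5 of the 9 hepatocyte markers fell. Macrophage markers fell in 6 and 5 of 8 cases and endothelial markers in 5 and 5 of 7. Of the stellate and fibroblast markers 4 rose and 2 fell in MYC tumours, and 2 rose and 4 fell in MYC+Ex3 tumours, where the 4 lymphocyte markers tested and 1 of 2 cholangiocyte markers tested fell as well. Summed macrophage markers were at 120.5 to 162.8 RPKM in the controls, 39.6 to 132 in MYC and 67.7 to 79.8 in MYC+Ex3 tumours, and summed endothelial markers at 45.6 to 75.5, 25.7 to 41.5 and 27.5 to 31.3. For stellate and fibroblast markers the sums were 34.8 to 44.5, 27.7 to 54 and 23.6 to 31.7. No hepatocyte, macrophage, endothelial or stellate marker was at 0 throughout a group, and the part of cell composition in the factors' changes was not tested.

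The spread between livers of a genotype was shared by many factors. Library medians over the 41 factors ran from -0.21 to 0.13 in WT, -0.12 to 0.15 in Ex3, 0.94 to 1.69 in MYC and 0.99 to 1.61 in MYC+Ex3 livers, so the groups with MYC were clear of those without it in every liver. Within MYC+Ex3, the 2 livers without keratin transcripts were above the 3 with them in 26 of 41 factors, against 29.8% of genes. Rrp1b, for example, was at 27 and 27.2 RPKM in the former and 8.87, 13.8 and 8.06 in the latter, and Polr1b at 45.4 and 44.1 against 19.5, 26 and 18.4. The former livers also had more reads in genes (6.57 M and 7.31 M) than the latter (3.75 M, 5.10 M and 4.81 M). The parts of keratin and of depth in this split were not tested. Within libraries without keratin the median of MYC+Ex3 (2 livers) against MYC (4 livers) was 0.31, and 0 of 41 factors were called by limma. These MYC+Ex3 livers, replicates 1 and 2, were male. Of the MYC livers, replicates 1 and 2 were male and replicates 3 and 5 were counted with the females. The part of sex in this value was not tested. With keratin MYC had 1 liver, so no value is given.

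Sex moved with the factors as well. In the 4-OHT WT livers, all of which had the same genotype and treatment, library medians were 0.13 to 0.23 in the 4 males and -0.26 to -0.17 in the 3 females. Every male was above every female in 27 of 41 factors, against 14.5% of genes, with a median ratio of 1.38 against 1.12 over all genes. Nop56, for example, averaged 11.6 RPKM in males and 7.42 in females, and Gnl3 11.6 and 6.72. Of the 40 factors that passed the filter within these 7 livers, 4 were called higher in males, against 0.372% of genes: Gnl3 (log2 difference 0.71, limma adjusted p = 0.0192), Nop58 (0.68), Nop56 (0.58) and Wdr43 (0.55). With median-ratio rescaling 3 were called.

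Across the 20 day-4 livers, with genotype in the model, the difference was above 0 in 40 of 41 factors, against 53.1% of genes. Its median was 0.27, and 5 factors were called, against 1.5% of genes: Nop16 (0.45), Nolc1 (0.50), Heatr1 (0.39), Nop56 (0.37) and Nop2 (0.36). Without MYC replicate 5, 1 was called (Nop16, adjusted p = 0.00994; 1.06% of genes). MYC replicate 3 and MYC+Ex3 replicate 5, which were females, had low medians for their groups (1.10 and 0.99). The lowest MYC liver, replicate 5 (0.94), which held RNA of both sexes, was counted with the females. In male libraries alone 35 factors were called higher in MYC and 34 in MYC+Ex3 livers, and 38 in each tumour group. The shares of all genes called in these male fits are not given here. With both sexes, 16.9% and 17.9% of genes rose in these livers and 36.2% and 42.3% in these tumours. The female MYC+Ex3 tumour, replicate 3, had the highest median of the tumours. The comparison by sex was added after the values were seen.

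**Figure D5:**
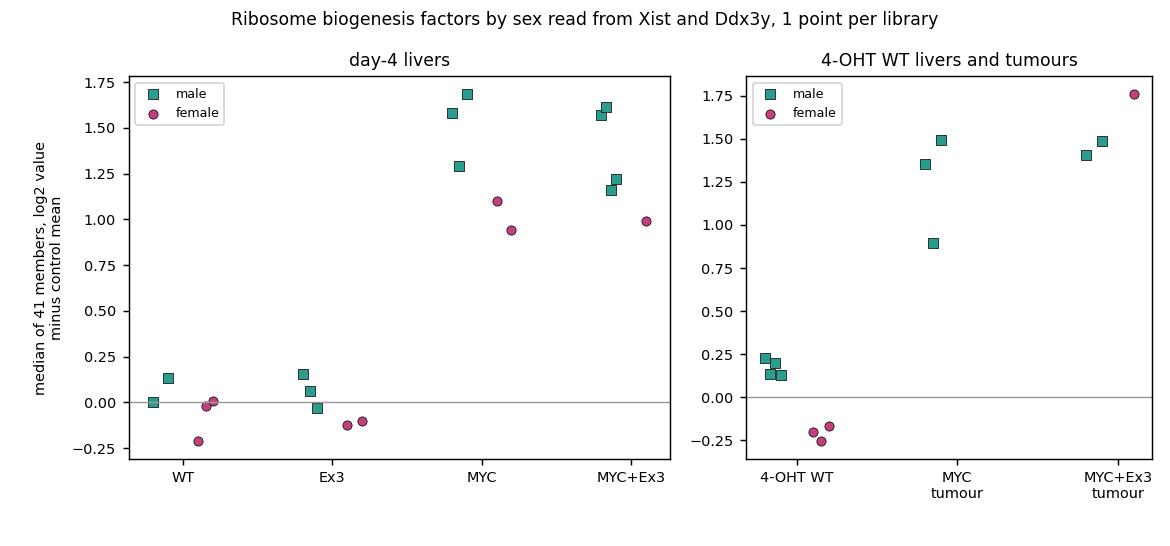
Median over the 41 factors of the log2(RPKM + 1) value minus the control mean, by group and by sex as read from Xist and Ddx3y, with 1 point per library (squares male, circles female; MYC replicate 5, with RNA of both sexes, is drawn as female). In the 4-OHT WT livers the 4 males (0.13 to 0.23) are above the 3 females (-0.26 to -0.17), and the libraries of both sexes in the MYC groups lie from 0.90 to 1.76.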

How the data were processed

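RNA was measured in 20 AAV8-TBG-CRE livers, 7 4-OHT livers and 6 tumours. The authors deposited RPKM values per gene and library and, per comparison, a log2 fold change and an adjusted p-value; the submitters' processing notes name TopHat2 2.0.8, SAMtools, featureCounts 1.4.5-p1, DESeq2 and mm9, with no roles. The libraries were stranded, per the labels' protocols. No column lay outside the series (0). Whole reads could be recovered from RPKM (100% of 20485 genes, tolerance 1e-05 reads). No pair of libraries within a group agreed within sampling noise (chi-square per gene at least 3.07 over 67 pairs). Where the labels call samples separate but name no animals, p-values measure only the spread between these samples.

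Genes with RPKM of at least 1 in 3 libraries were tested on log2(RPKM + 1), which understates changes of low genes, with limma 3.58.1 in R 4.3.3 (empirical Bayes with trend, two-sided, Benjamini-Hochberg over all genes of a comparison), separately in the 2 arms, for 9 comparisons. The test was run on simulated reads with far fewer changed genes than in these data, rising and falling in equal number. The simulation left out genes of few reads and held no limit on the highest genes and no sex or keratin difference. It therefore cannot show how the test behaves under those conditions. Depth limits precision: the fewest reads of a factor were 9 (Gar1, day-4 liver) and 26 (tumour arm).

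The factors and all gene lists were chosen with earlier results of these data known. The text names every factor by role, gives values by library for a panel of 14, and in each comparison names the 2 factors with the largest and the 2 with the smallest change, and likewise for the other pathway genes against WT. Alternatives covered the pseudocount, the filter, median-ratio scaling, the samples in the fit, sex, keratin, the control livers, limma-voom on recovered reads and each left-out library. Fits on male libraries alone and without Ex3 replicates 3 and 4, and the rescaling and left-out library of the comparison by sex, were chosen after seeing the data.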

Additional observations from a re-analysis of the deposited data

Results flagged for a closer look

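In 80 sets of 4 or more libraries (groups by factor) tested for a gap between the extreme library and the others, 3 were flagged; chance flags about 1 in 20. All concerned MYC+Ex3 replicate 5, the lowest of its group and its only female. Ncl was at 52.5 RPKM there, against 63.1 to 66.5 in the other 4 livers. Dkc1 was at 50.1, against 54.4 to 55.5. Pes1 was at 32.1, against 45 to 49.2. In each of these genes the liver remained above every WT liver.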

How the results depend on the processing

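No paired analysis was possible because replicate numbers do not match animals across groups. Under the alternatives the number of factors called stayed within 1.5 times the reported count in each of the 9 comparisons but for a single exception: without MYC tumour replicate 3, 2 factors were called higher in MYC+Ex3 than in MYC tumours. The share of all genes called without that tumour is not given here. Leaving out each library in turn gave 37 to 40 factors for MYC, 38 to 39 for MYC+Ex3 and 37 to 38 for MYC+Ex3 against Ex3 livers, 0 to 0 for Ex3, for MYC+Ex3 against MYC and for the interaction, 39 to 41 and 40 to 41 for MYC and MYC+Ex3 tumours, and 0 to 2 between tumours. Of the factors called, 32 of 39 (MYC) and 34 of 39 (MYC+Ex3) at day 4 and 38 of 41 in each tumour group were called under every alternative. The median change in MYC+Ex3 tumours was 1.78 with a pseudocount of 0.1 and 1.28 in males alone; with keratin livers alone it was 1.07 for MYC+Ex3 at day 4. The MYC fit in keratin livers has 1 MYC liver, assumed to vary like the other groups, so a call lost there says nothing of stability. Between tumours, the median ran from 0.10 to 0.39 with 1 tumour left out. The Ex3 median was -0.01 with median-ratio scaling, -0.05 with sex in the model and -0.04 in keratin livers. The MYC change of Emg1, not called, was -0.07 in livers without keratin. Some alternatives went the other way: the MYC change of Emg1 was called without MYC replicate 5, and that of Pno1 with keratin in the model. In keratin livers alone, Emg1 was called higher in MYC+Ex3 livers than in WT.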
